A study of Mus musculus with 30 samples.

Results

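Cholesterol synthesis was followed through 7 genes, Hmgcs1, Sqle, Idi1, Insig1, Fdft1, Lss and Srebf2, among the 43629 genes of a table of raw RNA-seq counts from 30 libraries. The members were named as targets of the transcription factor SREBP2 together with the gene that encodes it, and each was matched to its row by Ensembl identifier. The rule itself used none of their measured values, but the members were chosen with earlier results of these data known. All 7 were kept by the filter on low counts in every comparison, with 44 to 7732 reads per gene and library. None of the 7 encodes an uptake protein.

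The cells were bone marrow-derived dendritic cells (BMDCs), grown from the marrow of adult mice with granulocyte-macrophage colony-stimulating factor (GM-CSF) for 6 days. There were 5 WT cultures, which the methods assign to C57BL/6J mice, and 5 Cacnb3-/- cultures, assigned to C57BL/6N mice, so that substrain and genotype cannot be told apart. Cacnb3 encodes the β3 auxiliary subunit of voltage-gated calcium channels. Each culture gave 3 libraries, named ctrl, 0p5h and 24h. A pulse of 500 µM ATP lasted 30 min. Cells were taken at its end or 24 h later by the labels, while the text of the study puts the early harvest 30 min after the pulse. The treatment field of the labels disagrees with the library names in 2 of the 3 sets, since it marks ctrl as ATP-treated and 0p5h as vehicle. Libraries are therefore called by name, and both readings remain possible. Fos, an immediate early gene, was at 6.67 to 45.4 CPM (counts scaled to the size of the library) in the ctrl libraries and at 133 to 296 CPM in the 0p5h libraries. The labels do not say whether the libraries of a number came from 1 animal, and p-values measure the spread between these cultures.

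SREBP2 is made as a precursor held in the endoplasmic reticulum. When sterols are low, the escort protein SCAP carries it to the Golgi apparatus, where it is cleaved, and the released fragment enters the nucleus and switches on genes for cholesterol synthesis and for lipoprotein uptake. Insulin-induced gene 1 (Insig1), itself a target, retains SCAP when sterols are plentiful. In myeloid cells this pathway is known to respond to activation and to oxysterols, which are also ligands of the liver X receptors (LXRs).

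Positions are on GRCm38, the build in the header of the count table, and reads were counted over all annotated exons. Hmgcs1 (ENSMUSG00000093930, chromosome 13, 119690462 to 119708086), Idi1 (ENSMUSG00000058258, chromosome 13, 8885501 to 8892451), Insig1 (ENSMUSG00000045294, chromosome 5, 28071363 to 28078662) and Lss (ENSMUSG00000033105, chromosome 10, 76531588 to 76557138) were on the plus strand. So were Sqle (ENSMUSG00000022351, chromosome 15, 59315077 to 59331192) and Srebf2 (ENSMUSG00000022463, chromosome 15, 82147266 to 82205376). Fdft1 (ENSMUSG00000021273, chromosome 14, 63145153 to 63177793) was on the minus strand. RefSeq promoter windows on GRCm38.p6 were matched for 5 of the 7 genes, all but Sqle and Fdft1. The windows end at the start of the RefSeq gene, which differs from the Ensembl start above (82147269 for Srebf2, 119690351 for Hmgcs1 and 28071412 for Insig1). The 250 bases before that RefSeq start are shown for Srebf2, the regulator itself, and for Hmgcs1 and Insig1. Hmgcs1 moved between sets in Cacnb3-/- cultures and Insig1 in WT cultures, each in only some of the fits below. Capitals mark 4 motifs found on either strand: TCACCCCA (the core of a sterol response element, which SREBPs bind), CCAAT (the CCAAT box), GGGCGG (the GC box) and CACGTG (an E-box). These letters were chosen after the windows had been read.
Srebf2, chr15:82147019-82147268, plus strand: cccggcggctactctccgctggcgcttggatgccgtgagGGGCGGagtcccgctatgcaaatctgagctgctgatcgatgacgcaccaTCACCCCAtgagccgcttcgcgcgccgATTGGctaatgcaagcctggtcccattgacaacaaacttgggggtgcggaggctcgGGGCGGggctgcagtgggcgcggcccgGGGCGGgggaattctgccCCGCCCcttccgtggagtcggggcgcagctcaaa
Hmgcs1, chr13:119690101-119690350, plus strand: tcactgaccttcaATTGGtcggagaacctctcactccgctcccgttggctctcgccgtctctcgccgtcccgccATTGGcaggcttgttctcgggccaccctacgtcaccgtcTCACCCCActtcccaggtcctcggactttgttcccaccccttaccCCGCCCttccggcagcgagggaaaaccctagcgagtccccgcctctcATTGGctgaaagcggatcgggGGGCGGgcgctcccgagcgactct
Insig1, chr5:28071162-28071411, plus strand: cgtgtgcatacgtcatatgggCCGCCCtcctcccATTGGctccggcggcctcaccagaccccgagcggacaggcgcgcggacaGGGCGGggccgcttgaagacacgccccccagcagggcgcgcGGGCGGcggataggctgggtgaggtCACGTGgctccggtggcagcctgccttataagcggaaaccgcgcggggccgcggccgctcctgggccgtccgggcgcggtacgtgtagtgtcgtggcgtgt

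The sterol response element core began 162 bases before the RefSeq start of Srebf2 and 137 bases before that of Hmgcs1. It was in 2 of the 5 member windows and in 1.34% of 32841 windows of this length over all genes. A CCAAT box was in 5 of 5 member windows and in 33.9% of all windows, and a GC box in 5 of 5 and in 32.7%. The E-box, in 6.02% of all windows, was in 1 of 5 member windows, 101 bases before the RefSeq start of Insig1. A window without a motif says only that these letters are not in it.

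Libraries held 8237393 to 32164225 counts, with a median of 19556920. Mitochondrially encoded genes took 0.706 to 5.61% of the counts in WT and 2.16 to 16.5% in Cacnb3-/- libraries. The dependence of counts on GC content differed too. In the 24h set, counts changed by -0.54 to 0.05 on the log2 scale per 10 percentage points of GC in the Cacnb3-/- libraries and by 0.00 to 0.55 in the WT libraries. The 7 dendritic cell markers summed to 10800 to 30100 CPM over all libraries, led by Cd74 (5770 to 19300 CPM), and the 6 macrophage markers to 497 to 2130 CPM. Granulocyte markers summed to 120 to 625 CPM, and erythroid, mast cell and basophil, and lymphocyte markers to at most 5.79 CPM. Cacnb3 was at 1171 to 1407 CPM in WT and 792 to 1325 CPM in Cacnb3-/- ctrl libraries, and the groups were apart in the 24h set (1326 to 2169 against 546 to 1318 CPM). The deleted part of Cacnb3 is not given in the sources used here, so its summed exon counts do not check the labels. The mitochondrial share varied within Cacnb3-/- culture p974s843 (4.83% in ctrl, 10.5% at 0p5h and 16.5% at 24 h). It also varied within culture p974s853 (10.4, 5.13 and 13.6%). The ctrl library of p974s843 stood apart in its correlations. Its deviations from the group mean correlated with those of the 24h library of its own number at r = 0.0732 and with those of the 24h library of p974s865 at r = 0.399 across genes, which are not independent replicates. Most values that use that library are also given without its culture.

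Per kilobase of counted exon, Srebf2 and Hmgcs1 were the most abundant members, at 34.1 ± 12 and 25.9 ± 5.7 CPM per kb (mean ± SD over 30 libraries). Sqle (squalene epoxidase) followed at 10.5 ± 3.82 CPM per kb, then Fdft1 (squalene synthase) at 7.67 ± 2.46 CPM per kb and Insig1 at 6.56 ± 2.3 CPM per kb. Idi1 (isopentenyl diphosphate isomerase) was at 2.56 ± 0.647 CPM per kb and Lss (lanosterol synthase) at 1.03 ± 0.288 CPM per kb, over a counted length of 10787 bases. In this order Srebf2 and Hmgcs1 overlapped within 1 SD, as did Sqle and Fdft1, and Fdft1 and Insig1. The order of Srebf2 and Hmgcs1 changed with the group. Per kilobase, Hmgcs1 was below Srebf2 in 5 of 5 WT libraries of the 24h set (median ratio 0.641) and above it in 4 of 5 Cacnb3-/- libraries of that set (median ratio 1.82). Hmgcs1 has 42.6% GC and Srebf2 58.7%, and the part of the GC dependence of the libraries in this ratio was not tested.

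For most members the cultures differed from each other by more than the sets of a culture did. On the log2 scale, the SD between cultures of a genotype was 0.43 for Sqle and 0.362 for Srebf2, against 0.191 and 0.182 within cultures. Hmgcs1 was the exception, with 0.23 between and 0.309 within cultures. WT culture p974s855 had the highest WT level in all 3 sets for 5 members (Hmgcs1, Sqle, Insig1, Fdft1 and Lss), and WT culture p974s864 the lowest for 5 (Sqle, Insig1, Fdft1, Lss and Srebf2). Among Cacnb3-/- cultures, p974s865 was the highest in all 3 sets for Insig1 and Srebf2.

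**Figure D1:**
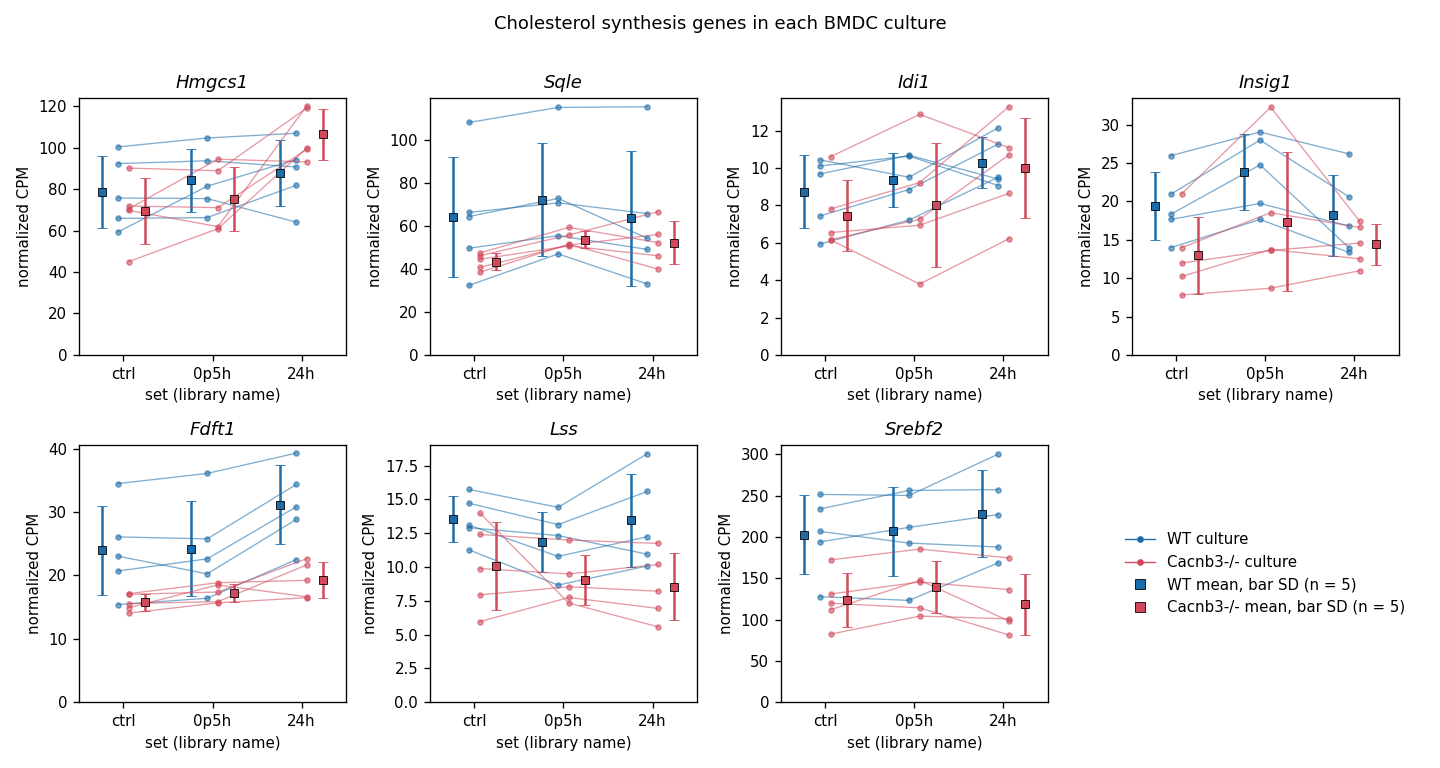
Normalized CPM of the 7 genes (y axis) in the ctrl, 0p5h and 24h sets (x axis), with 1 line per culture in blue (WT) or red (Cacnb3-/-) and squares with bars for the mean and SD of 5 cultures. Among the WT cultures the same one is highest in every set for Hmgcs1, Sqle, Insig1, Fdft1 and Lss. Hmgcs1 is higher at 24 h than in ctrl in each Cacnb3-/- culture.

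Whether the genes moved between sets was tested within each genotype with edgeR's quasi-likelihood test, where a Benjamini-Hochberg adjusted p under 0.05 over all genes is called passed and fold changes are on the log2 scale, ± SE. In this unpaired fit 0 of 7 members passed in each of the 6 comparisons between sets, and DESeq2 and limma-voom also gave 0 in each. Libraries of 1 number deviated together from their group means, so each comparison was also fitted with the culture number as a block (the paired fit). The exception was 24h against ctrl in Cacnb3-/-, where the numbers did not pair all libraries. In each of the 5 paired fits 1 or 2 of the 7 members passed.

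From ctrl to 0p5h, Insig1 rose in WT in the paired fit. It was at 14, 17.7, 18.3, 20.9 and 26 CPM in the WT ctrl libraries and at 17.7, 19.7, 24.8, 28 and 29.1 CPM in the 0p5h libraries. The groups overlapped, and Insig1 was higher at 0p5h in 5 of 5 WT cultures. Its paired log2 fold change was 0.31 ± 0.06 (95% interval 0.17 to 0.44, edgeR adjusted p = 0.0155), and its unpaired adjusted p was 1. The call was lost without culture p974s850 (adjusted p = 0.0649) or p974s856 (0.127). In Cacnb3-/- it was at 7.81, 10.2, 12, 14 and 21 CPM in ctrl and 8.7, 13.6, 13.7, 18.5 and 32.3 CPM at 0p5h. It was higher in 5 of 5 cultures there, with a paired log2 fold change of 0.37 ± 0.10 that did not pass (edgeR adjusted p = 0.0949).

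Sqle, which catalyzes the first oxygenation step of sterol synthesis, rose in Cacnb3-/- in the paired fit. It was at 38.5, 40.8, 44.5, 46.2 and 47.5 CPM in the ctrl libraries and at 50.8, 51.2, 51.5, 55.8 and 59.4 CPM at 0p5h, so the lowest 0p5h library was above the highest ctrl library. The paired log2 fold change was 0.30 ± 0.07 (95% interval 0.16 to 0.45, edgeR adjusted p = 0.0451), against an adjusted p of 0.833 unpaired. Without culture p974s843 the paired adjusted p was 0.00356, and Insig1 (0.0108) and Srebf2 (0.0275) passed as well, beside 9.43% of all genes. Without any 1 of the other 4 cultures (p974s851, p974s852, p974s853 or p974s865) the call for Sqle was lost, at adjusted p-values of 0.0807 to 0.252. In WT, Sqle was higher at 0p5h in 5 of 5 cultures and did not pass (paired log2 fold change 0.21 ± 0.06, edgeR adjusted p = 0.0672). Its WT libraries spread widely, over 32.4 to 108 CPM in ctrl and 47 to 115 CPM at 0p5h.

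The other members did not pass from ctrl to 0p5h. Lss, which folds squalene epoxide into lanosterol, was lower at 0p5h in 5 of 5 WT cultures (paired log2 fold change -0.19 ± 0.07, edgeR adjusted p = 0.143). For Hmgcs1 the paired 95% interval was -0.02 to 0.25 in WT and -0.11 to 0.36 in Cacnb3-/-. For Fdft1 it was -0.10 to 0.15 and -0.05 to 0.31, and for Idi1 -0.05 to 0.29 and -0.28 to 0.37. In WT, 1 of 7 members passed in the paired fit, beside 5.96% of 13085 genes. In the WT unpaired fit 0 of 7 passed, beside 0.29%, with 0 at an unadjusted p under 0.05, beside 4.54%. In Cacnb3-/-, 1 of 7 passed in the paired fit, beside 2.35% of 12750 genes, and 0 of 7 unpaired, beside 0.384%. Unpaired, 1 had an unadjusted p under 0.05, beside 3.99%. The median unpaired log2 fold change of the members was 0.11 in WT and 0.13 in Cacnb3-/-, beside 0.01 and -0.01 over all genes.

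**Figure D2:**
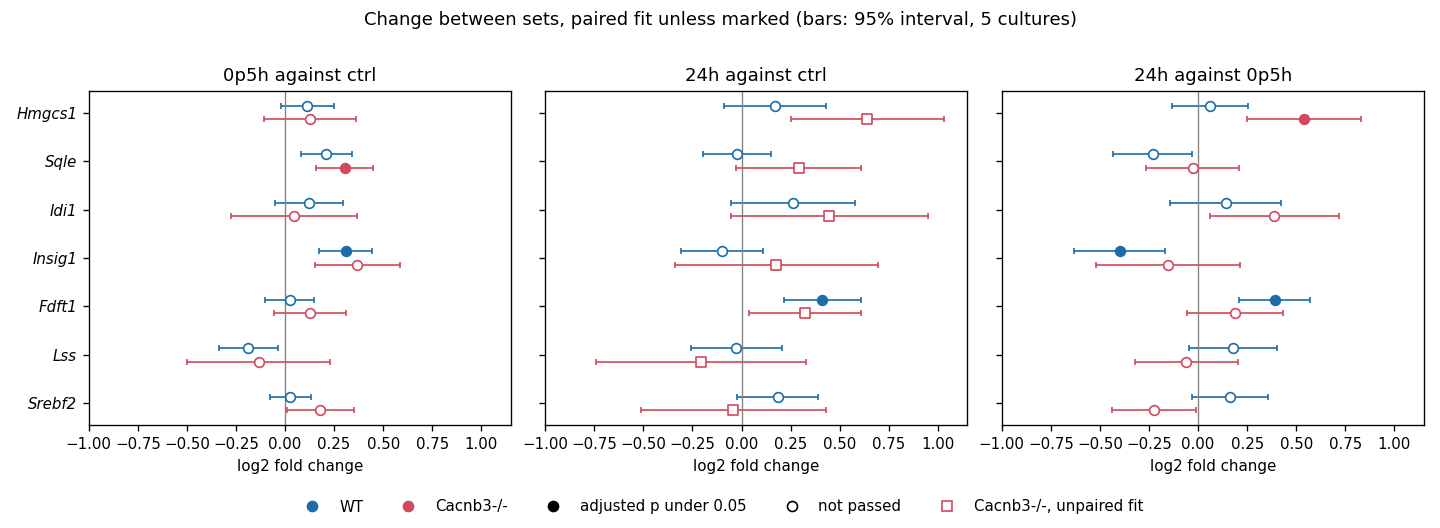
Log2 fold change of each gene between sets (x axis), with bars for the 95% interval over 5 cultures, in WT (blue) and Cacnb3-/- (red). Circles are from the paired and squares from the unpaired fit, and filled points have an adjusted p under 0.05. Insig1 and Fdft1 have filled points in WT, and Sqle and Hmgcs1 in Cacnb3-/-.

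By 24 h, Fdft1 rose in WT in the paired fit. The enzyme joins farnesyl diphosphates into squalene, the first step committed to sterols. It was at 15.4, 20.7, 23, 26.1 and 34.5 CPM in the WT ctrl libraries, at 16.4, 20.2, 22.6, 25.8 and 36.1 CPM at 0p5h and at 22.5, 28.8, 30.8, 34.3 and 39.3 CPM at 24 h. The sets overlapped, and Fdft1 was higher at 24 h than in ctrl or 0p5h in 5 of 5 WT cultures. Its paired log2 fold change was 0.41 ± 0.09 against ctrl (95% interval 0.21 to 0.61, edgeR adjusted p = 0.028). Against 0p5h it was 0.39 ± 0.08 (95% interval 0.21 to 0.57, edgeR adjusted p = 0.0151). The unpaired adjusted p-values were 0.629 and 0.562. Against ctrl the call was kept without culture p974s856 (0.0451) and lost without p974s846, p974s850, p974s855 or p974s864 (0.0504 to 0.129). Against 0p5h it was lost without p974s846 (0.071), p974s850 (0.0503) or p974s864 (0.0583).

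Insig1 fell in WT between 0p5h and 24 h in the paired fit, to 13.4, 14, 16.8, 20.6 and 26.2 CPM. It was lower in 5 of 5 cultures, with a log2 fold change of -0.40 ± 0.10 (95% interval -0.63 to -0.17, edgeR adjusted p = 0.0376 paired and 0.536 unpaired). The call was kept without culture p974s856 (adjusted p = 0.049) and lost without p974s846, p974s850, p974s855 or p974s864 (0.0549 to 0.101). Between ctrl and 24 h Insig1 differed by -0.10 ± 0.09 in WT (paired 95% interval -0.31 to 0.11) and did not pass.

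In Cacnb3-/- the member that rose by 24 h was Hmgcs1, the cytosolic synthase that makes HMG-CoA. It was at 45, 69.7, 70.5, 71.8 and 90.1 CPM in the ctrl libraries, at 60.9, 61.9, 71, 88.8 and 94.4 CPM at 0p5h and at 93.1, 99.2, 99.9, 119 and 120.2 CPM at 24 h. All 24h libraries were above all ctrl libraries, and Hmgcs1 was higher at 24 h than at 0p5h in 4 of 5 cultures. From 0p5h to 24 h its paired log2 fold change was 0.54 ± 0.13 (95% interval 0.25 to 0.83, edgeR adjusted p = 0.0132), with an unpaired adjusted p of 0.162. With the GC trend of each library removed, the paired value was 0.29 ± 0.09 (adjusted p = 0.0312). The call was lost without culture p974s843 (adjusted p = 0.0623) or p974s851 (0.0544). From ctrl to 24 h the unpaired log2 fold change was 0.64 ± 0.18 (95% interval 0.25 to 1.03), which did not pass in edgeR (adjusted p = 0.444, and 0.841 without p974s843). The mitochondrial share of these libraries was 2.16 to 10.5% at 0p5h and 3.21 to 16.5% at 24 h. In culture p974s865, which had the lowest share at 24 h, Hmgcs1 differed by -0.02 between these sets on the log2 scale. The part of the mitochondrial share in this rise was not tested.

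Further members were higher in every Cacnb3-/- culture at 24 h than in ctrl without passing. Idi1 was at 6.15 to 10.6 CPM in ctrl and 6.22 to 13.3 CPM at 24 h (unpaired log2 fold change 0.45 ± 0.23, and 0.23 ± 0.18 with the GC trend removed). Fdft1 was at 14.1, 14.9, 15.6, 17 and 17.1 CPM in ctrl and 16.5, 16.6, 19.2, 21.7 and 22.7 CPM at 24 h (unpaired log2 fold change 0.32 ± 0.13). Sqle was the other such gene, with an unpaired log2 fold change of 0.29 ± 0.15. Srebf2 was lower at 24 h than at 0p5h in 5 of 5 Cacnb3-/- cultures (paired log2 fold change -0.23 ± 0.10, edgeR adjusted p = 0.101), and that difference was 0.06 ± 0.07 with the GC trend removed. Without culture p974s843 the unpaired 24h against ctrl values were 0.49 for Idi1, 0.32 for Fdft1 and 0.32 for Sqle, with an adjusted p of 0.841 in each.

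From ctrl to 24 h in WT, 1 of 7 members passed in the paired fit, beside 6.05% of 13176 genes, and 0 unpaired, beside 0.0152%. Unpaired, 0 had an unadjusted p under 0.05, beside 8.39%. From 0p5h to 24 h in WT, 1 rose and 1 fell in the paired fit, beside 11.3% of 12830 genes called in either direction. Unpaired, 0 passed, beside 1.19%, with 0 at an unadjusted p under 0.05, beside 11.2%. In Cacnb3-/- from ctrl to 24 h, 0 of 7 passed in the unpaired fit, beside 0% of 12452 genes, with 2 at an unadjusted p under 0.05 beside 10.8% of all genes. From 0p5h to 24 h, 1 of 7 passed in the paired fit, beside 28.6% of 12730 genes, and 0 unpaired, beside 0.88%. Unpaired, 1 had an unadjusted p under 0.05, beside 17.5%. With so few members, these counts give no result about the 7 genes as a group.

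Genotypes were compared within each set, where no number is shared. No member passed, and Srebf2 and Fdft1 had the lowest adjusted p-values in all 3 sets. Srebf2 was at 128, 194, 207, 234 and 252 CPM in the WT ctrl libraries and at 82.5, 112, 119.9, 131 and 172 CPM in the Cacnb3-/- ctrl libraries. At 0p5h it was at 123, 193, 212, 250.3 and 256 CPM in WT and 104, 114, 146, 148 and 185 CPM in Cacnb3-/-. At 24 h it was at 169, 188, 227, 257 and 300.3 CPM in WT and 81.5, 98.5, 101, 136 and 175 CPM in Cacnb3-/-. The groups overlapped in every set, where WT culture p974s864 had the lowest WT and Cacnb3-/- culture p974s865 the highest Cacnb3-/- level.

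The log2 fold change of Srebf2 in Cacnb3-/- against WT was -0.69 ± 0.20 in ctrl (edgeR adjusted p = 0.245), -0.54 ± 0.21 at 0p5h (0.264) and -0.91 ± 0.21 at 24 h (95% interval -1.37 to -0.45, 0.0515). For Fdft1 it was -0.57 ± 0.18 in ctrl (edgeR adjusted p = 0.247), -0.46 ± 0.18 at 0p5h (0.279) and -0.64 ± 0.16 at 24 h (95% interval -0.99 to -0.29, 0.0515). Lss was at 10.1 to 18.4 CPM in WT and 5.58 to 11.8 CPM in Cacnb3-/- libraries at 24 h (log2 fold change -0.60 ± 0.22, edgeR adjusted p = 0.0767). These 3 genes passed at 24 h in DESeq2, with adjusted p-values of 0.00572 for Srebf2, 0.00952 for Fdft1 and 0.0493 for Lss, where 22.5% of all genes passed, and in the edgeR fit of all 30 libraries, where 29% did. With the GC trend removed, the 24 h difference of Srebf2, the member richest in GC, was -0.46 ± 0.14 (adjusted p = 0.131). Without Cacnb3-/- culture p974s843 the adjusted p in ctrl was 0.248 for Srebf2 and 0.252 for Fdft1.

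Hmgcs1 had the opposite sign at 24 h, also without passing. It was at 64, 81.8, 90.6, 94.2 and 107 CPM in WT, and 2 of 5 Cacnb3-/- cultures were above all WT cultures (log2 fold change 0.33 ± 0.15, edgeR adjusted p = 0.123). With the GC trend removed the difference was -0.04 ± 0.10. In the ctrl and 0p5h sets it was -0.15 ± 0.20 and -0.12 ± 0.16. Sqle was at 64.2 ± 28.1 CPM in WT and 43.5 ± 3.75 CPM in Cacnb3-/- ctrl libraries (SD, n = 5 each), with a log2 fold change of -0.53 ± 0.25. Insig1 differed by -0.55 ± 0.24 in ctrl (edgeR adjusted p = 0.289), where 4 of 5 Cacnb3-/- libraries were below all WT libraries. Idi1 overlapped in every set, with a 24 h difference of 0.01 ± 0.20, and -0.42 ± 0.19 with the GC trend removed. Without Cacnb3-/- culture p974s843 the ctrl differences were -0.02 for Hmgcs1, -0.53 for Sqle and -0.52 for Insig1.

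**Figure D3:**
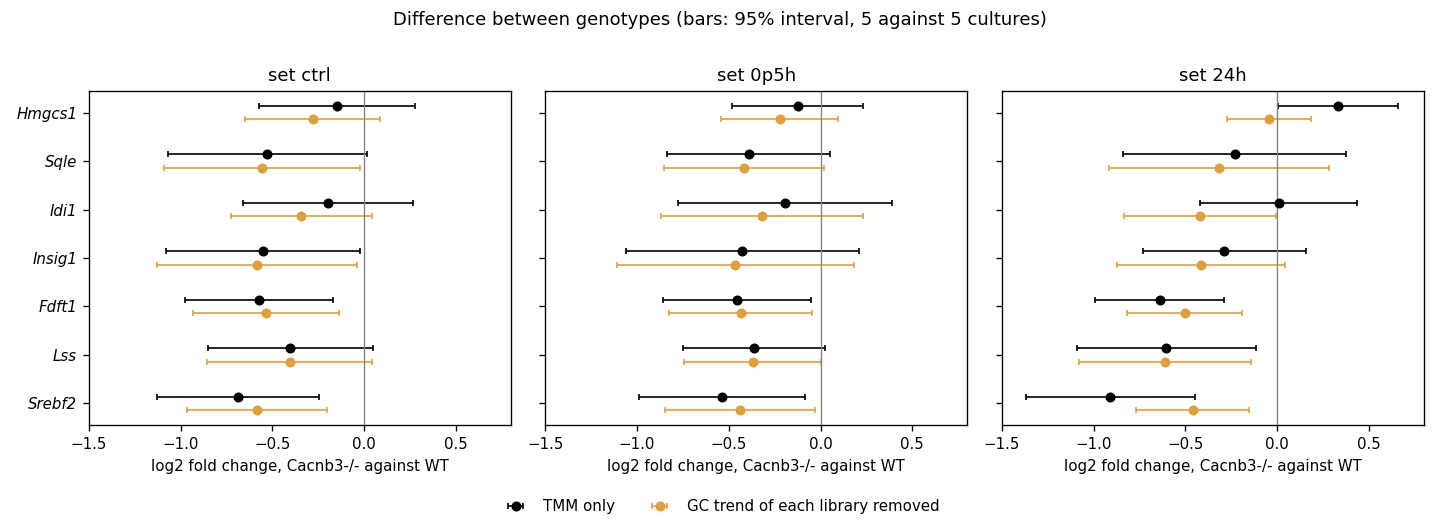
Log2 fold change of each gene in Cacnb3-/- against WT (x axis) in the 3 sets, with bars for the 95% interval of 5 against 5 cultures, from the fit with TMM factors alone (black) and with the GC trend of each library removed (orange). At 24 h the points of Srebf2 and Hmgcs1 lie closer to 0 with the trend removed, and that of Idi1 lies further from it.

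In edgeR 0 of 7 members passed between genotypes in ctrl, at 0p5h and at 24 h, beside 0% of 13022, 0% of 12806 and 0% of 12706 genes. At an unadjusted p under 0.05 there were 3, 2 and 4 members, beside 16.6, 16.4 and 38.4% of all genes. DESeq2 gave 0, 0 and 3 members that passed, beside 1.72, 1.03 and 22.5% of all genes, and limma-voom 0 in each set. The median log2 fold change of the members was -0.53, -0.39 and -0.29, beside 0.03, 0.02 and 0.01 over all genes. With the GC trend removed this median was -0.53, -0.42 and -0.42. Without WT culture p974s864, Srebf2 and Fdft1 passed in ctrl (adjusted p = 0.038 and 0.041) beside 3.09% of all genes, and at 24 h (0.0377 and 0.0377) beside 18.7%. Without Cacnb3-/- culture p974s865, Srebf2, Fdft1 and Lss passed at 24 h (adjusted p = 0.00799, 0.014 and 0.0305), beside 35.3% of all genes. Sequencing lanes, given in the column names of the counts, were spread unevenly over the groups. With lane as a covariate in edgeR, 0 of 7 members passed in each set, beside 0% of all genes. Their median log2 fold change was then -0.65 in ctrl, -0.45 at 0p5h and -0.40 at 24 h. In bulk RNA, fewer cells of a type and less RNA per cell cannot be told apart.

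At the extremes, a high mitochondrial share went with a low Srebf2 level and a low share with a high level. WT culture p974s864 had the highest share of the WT cultures in each set (4.49% in ctrl, 4.02% at 0p5h and 5.61% at 24 h) and the lowest WT Srebf2 level. Cacnb3-/- culture p974s865 had the lowest share of the Cacnb3-/- cultures (2.61%, 2.16% and 3.21%) and the highest Cacnb3-/- Srebf2 level. The library with the largest share of all 30, p974s843 at 24 h with 16.5%, had the lowest Srebf2 level of all 30. The dendritic cell markers summed to 10800 to 21100 CPM in Cacnb3-/- and 16300 to 28200 CPM in WT libraries at 24 h. The part of these in the genotype differences was not tested.

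**Figure D4:**
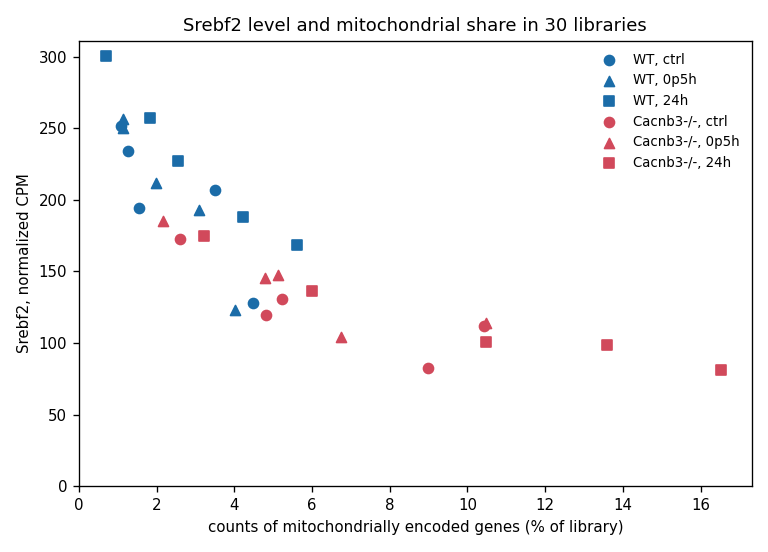
Srebf2 level in normalized CPM (y axis) against the percentage of counts from mitochondrially encoded genes (x axis) in the 30 libraries, in blue for WT and red for Cacnb3-/-, with circles for ctrl, triangles for 0p5h and squares for 24h. The highest Srebf2 level, 300.3 CPM, is at a share of 0.706%, and the lowest, 81.5 CPM, at 16.5%.

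An interaction term asked whether a gene changed by more in one genotype than in the other. In edgeR 0 of 7 members passed for 0p5h against ctrl (0% of 13465 genes), for 24h against ctrl (0% of 13536 genes) and for 24h against 0p5h (0% of 13424 genes), with 0, 0 and 0 members at an unadjusted p under 0.05. DESeq2 and limma-voom also gave 0 members that passed in each. With the culture number as a block, 0 of 7 passed in edgeR for 0p5h against ctrl (beside 0% of all genes) and for 24h against 0p5h (beside 0.00745%). At an unadjusted p under 0.05 there were then 0 and 2 members, beside 312 of 13465 and 3817 of 13424 genes. The lowest edgeR adjusted p of a member for 24h against 0p5h was 0.11 with the block. In the unpaired edgeR fit the change of Hmgcs1 from ctrl to 24 h was larger in Cacnb3-/- by 0.48 ± 0.25 on the log2 scale (95% interval -0.04 to 1.01, adjusted p = 0.753). For Fdft1 from ctrl to 24 h the difference was -0.06 ± 0.25 (95% interval -0.57 to 0.45). From ctrl to 0p5h it was 0.12 ± 0.40 for Insig1 (95% interval -0.73 to 0.96) and 0.13 ± 0.34 for Sqle (95% interval -0.57 to 0.84). The calls made in 1 genotype are therefore not shown to differ between genotypes. Without culture p974s843 these values were 0.37 for Hmgcs1, -0.06 for Fdft1, 0.16 for Insig1 and 0.15 for Sqle, and 0 of 7 passed in each of these comparisons.

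Other genes of sterol metabolism were followed in fixed lists. Of 15 further synthesis enzymes, 0 passed in the unpaired edgeR fits between sets, with 0 to 4 per comparison at an unadjusted p under 0.05. In these fits 3.99 to 17.5% of all genes had an unadjusted p under 0.05. In the paired fit 0 of 15 passed from ctrl to 0p5h in WT, with 2 at an unadjusted p under 0.05, beside 21.6% of all genes. By 24 h in WT, 2 of 15 rose against ctrl, beside 6.05% of all genes called, Fdps (0.51 ± 0.11), which makes farnesyl diphosphate, and the lanosterol demethylase gene Cyp51 (0.53 ± 0.10). Fdps went from 6.59, 9.11, 10.9, 12 and 17.2 CPM in ctrl to 12, 12.4, 14, 15.9 and 23.6 CPM at 24 h, higher in 5 of 5 cultures with overlapping groups. Against 0p5h, 2 of 15 rose in WT, beside 11.3%, Cyp51 (0.38 ± 0.07) and the mevalonate kinase gene Mvk (0.32 ± 0.09). In Cacnb3-/-, 0 of 15 passed from ctrl to 0p5h in the paired fit, with 2 at an unadjusted p under 0.05, beside 15.4% of all genes. From 0p5h to 24 h 4 of 15 rose and 0 fell, a share near the 28.6% of all genes called in either direction in that fit (1811 rose and 1834 fell of 12730). The 4 that rose were Cyp51 (0.77 ± 0.16, edgeR adjusted p = 0.00534), the methylsterol oxidase gene Msmo1 (0.57 ± 0.17), the sterol dehydrogenase gene Nsdhl (0.39 ± 0.12) and the ketosterol reductase gene Hsd17b7 (0.47 ± 0.15). Cyp51 was at 30.0, 31, 48.8, 50.8 and 56.7 CPM at 0p5h and 62.5, 64.6, 66.9, 74.5 and 87.1 CPM at 24 h, with no overlap. The median log2 fold change of the 15 in that paired fit was 0.09. With the GC trend removed it was 0.08, and 3 of 15 rose, beside 24.3% of all genes called.

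Of 5 genes of sterol uptake and transport, 1 passed in the paired fits between sets, Scarb1, the HDL receptor gene. It passed in WT at 24 h against ctrl and against 0p5h, beside 6.05% and 11.3% of all genes called. It also passed in Cacnb3-/- from 0p5h to 24 h, beside 28.6%. In WT it was at 25.9, 27.4, 34.6, 42.7 and 45.5 CPM in ctrl, 27, 28.5, 30.8, 35.5 and 39 CPM at 0p5h and 22, 22.3, 23.7, 25.1 and 31.2 CPM at 24 h. It fell between ctrl and 24 h (log2 fold change -0.47 ± 0.10, edgeR adjusted p = 0.0253) and between 0p5h and 24 h (-0.36 ± 0.08, 0.0164), lower at 24 h in 5 of 5 WT cultures in both with overlapping groups. In Cacnb3-/- it was at 20.8, 32.6, 34.2, 36.1 and 52.4 CPM at 0p5h and 14.4, 16, 17.3, 20.4 and 34.5 CPM at 24 h, a fall in 5 of 5 cultures (-0.76 ± 0.10, edgeR adjusted p = 0.000656). Unpaired, 0 of 5 passed in each comparison between sets. An unadjusted p under 0.05 was reached by 0 to 2, beside 3.99 to 17.5% of all genes.

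**Figure D5:**
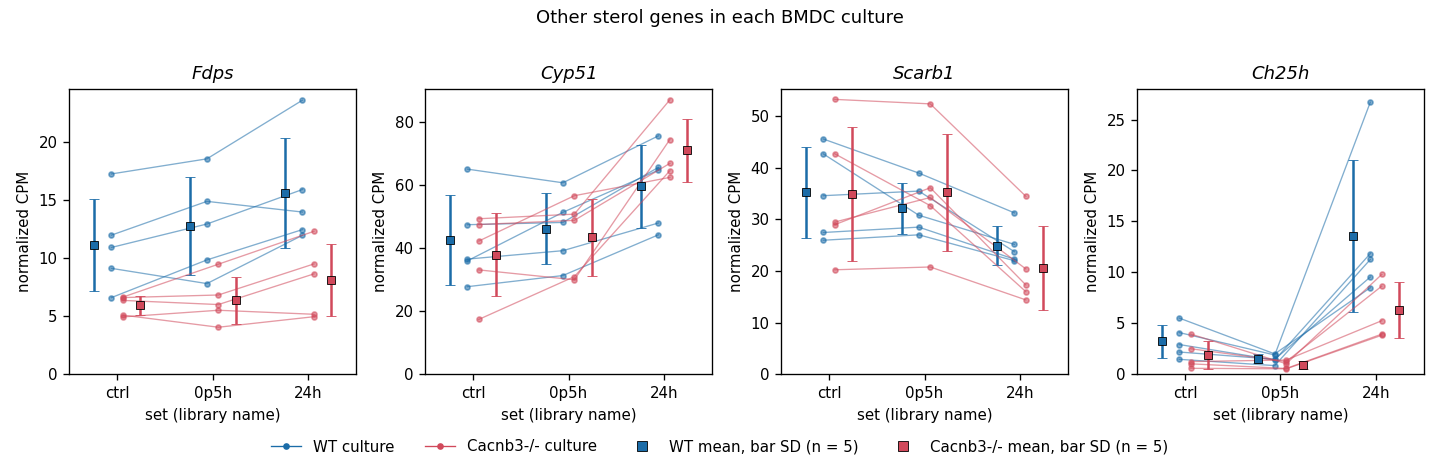
Normalized CPM (y axis) of the farnesyl diphosphate synthase gene Fdps, the demethylase gene Cyp51, the HDL receptor gene Scarb1 and the hydroxylase gene Ch25h in the 3 sets (x axis), with 1 line per culture in blue (WT) or red (Cacnb3-/-) and squares with bars for the mean and SD of 5 cultures. At 24 h Scarb1 is lower, and Cyp51 and Ch25h are higher, than at 0p5h in 5 of 5 cultures of each genotype.

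Among 9 genes of SREBP processing, Insig2, the second retention protein for SCAP, rose from ctrl to 0p5h in WT in the paired fit (0.20 ± 0.05, edgeR adjusted p = 0.0375) and fell from 0p5h to 24 h (-0.37 ± 0.06, 0.00666), as Insig1 did. In these 2 fits 5.96% and 11.3% of all genes were called. In the unpaired fits between sets 0 of 9 passed. An unadjusted p under 0.05 was reached by 0 to 3 per comparison, beside 3.99 to 17.5% of all genes. In Cacnb3-/-, 2 of 9 rose and 2 fell from 0p5h to 24 h in the paired fit, beside 28.6% of all genes called in either direction, and Srebf1, the related factor of fatty acid synthesis, fell (-0.58 ± 0.12). Ch25h, which makes the oxysterol 25-hydroxycholesterol, an inhibitor of SREBP processing, rose from 0p5h to 24 h in both genotypes in the paired and the unpaired fits. Its unpaired log2 fold change was 3.17 ± 0.36 in WT (edgeR adjusted p = 0.00162) and 2.76 ± 0.36 in Cacnb3-/- (0.0034). It was at 0.843 to 1.99 CPM at 0p5h and 8.49 to 26.7 CPM at 24 h in WT, and at 0.524 to 1.39 and 3.82 to 9.79 CPM in Cacnb3-/-. Over the 9 genes of efflux and LXR signalling, the paired fits gave 0 that rose and 2 that fell in WT from ctrl to 0p5h, beside 5.96% of all genes called. By 24 h in WT 1 rose and 1 fell against ctrl, beside 6.05%, and 1 and 1 against 0p5h, beside 11.3%. In Cacnb3-/- 0 rose and 1 fell from ctrl to 0p5h, beside 2.35%, and 3 rose and 2 fell from 0p5h to 24 h, beside 28.6%. Unpaired, 1 rose and 1 fell from 0p5h to 24 h in WT, beside 1.19% of all genes called, and 1 rose in Cacnb3-/-, beside 0.88%. In the other 4 comparisons 0 passed, with 0 to 2 at an unadjusted p under 0.05, beside 3.99 to 10.8% of all genes. The cholesterol exporter gene Abca1 fell from 0p5h to 24 h in WT in both fits (unpaired -0.60 ± 0.10, edgeR adjusted p = 0.0105). Mylip, an LXR target that encodes a ubiquitin ligase, fell from ctrl to 0p5h in WT (-0.47 ± 0.07) and in Cacnb3-/- (-0.53 ± 0.08) in the paired fits.

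Of 10 fatty acid synthesis genes 0 passed in the unpaired fits between sets. An unadjusted p under 0.05 was reached by 0 to 2, beside 3.99 to 17.5% of all genes. In the paired fits 2 of 10 fell by 24 h in WT against ctrl, beside 6.05% of all genes called, and 2 against 0p5h, beside 11.3%. In Cacnb3-/- 1 fell from 0p5h to 24 h, beside 28.6%. The desaturase gene Scd2 fell in each of these, in WT by -1.11 ± 0.15 against ctrl and -0.98 ± 0.13 against 0p5h, and in Cacnb3-/- by -0.81 ± 0.18. Between genotypes, 0 genes of these 5 lists passed in edgeR in any set. Each list held 0 to 6 genes at an unadjusted p under 0.05. In ctrl, at 0p5h and at 24 h, 16.6, 16.4 and 38.4% of all genes were under it. Of 4 immediate early genes, 3 rose from ctrl to 0p5h in WT and 4 in Cacnb3-/- in the unpaired fits, beside 0.29% and 0.384% of all genes called.

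Within cultures the 7 members did not all vary together. With log2 CPM centred within each culture, Pearson's r over the 30 libraries was 0.798 between Sqle and Insig1, 0.569 between Hmgcs1 and Idi1 and 0.474 between Lss and Srebf2. It was -0.511 between Hmgcs1 and Lss and -0.36 between Hmgcs1 and Srebf2. Without centring, so that differences between cultures count, it was 0.878 between Lss and Srebf2, 0.812 between Fdft1 and Srebf2 and -0.059 between Hmgcs1 and Srebf2. These r are descriptions, since libraries of a culture share their cells and all share depth and GC effects. The centred mean of the 7 standardized members was most like Crlf3 (r = 0.786), Phf11a, Cox15, Fat1, Sema6d, Umad1, Fmnl2, Cdon, Ero1b and Ift57 (r = 0.742) among 13717 genes that are no members. The r of single members with that mean, which each is part of, ran from 0.138 for Lss to 0.679 for Idi1.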

How the data were processed

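RNA was measured by polyA-selected RNA-seq in 30 BMDC libraries. The deposited values are raw counts per gene, which the authors made with STAR 2.4 and featureCounts 1.5.1. The file header gives Ensembl GRCm38 release 79 and counting over exons, the labels give mm10 and the methods name GRCm39. The header shows no strand option although the methods name a stranded kit, so reads of a gene and of an antisense partner cannot be told apart. Of the identifiers, 89.4% matched a symbol.

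Members and lists were chosen with earlier results of these data known. edgeR 4.0.16 (TMM factors, its default filter on low counts, quasi-likelihood test) in R 4.3.3 was the main test, with DESeq2 1.42.0 and limma-voom (limma 3.58.1) as alternatives, and scripts were tested on simulated data. Levels are TMM-normalized CPM. Named were all 7 members, some of the list genes with an adjusted p under 0.05 (up to 4 per list and comparison) and the 10 genes most like the members' mean. Some genes of the sterol lists are not reported here. The GC trend was removed as an offset per library.

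Numbers were taken to pair libraries where deviations from the group means correlated above 0.1 in every pair. That held for 29 of 30 pairs (median r = 0.611, against -0.22 for unlike numbers), and 1 pair, the ctrl and 24h libraries of Cacnb3-/- p974s843, had 0.0732.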

Additional observations from a re-analysis of the deposited data

Results flagged for a closer look

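Samples far from the others of their group were sought by Dixon's criterion in 84 groups of 5 libraries, over 14 genes. It marked 2 groups, and chance marks about 1 in 20. Neither was of a member gene. Ch25h in the WT 24h library of culture p974s856 was at 26.7 CPM, above the other 4. Fos in the WT ctrl library of culture p974s864 was at 45.4 CPM, above the other 4.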

How the results depend on the processing

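Counts are of members with an adjusted p under 0.05, against 0 in each unpaired edgeR comparison. With the replicate block the count was 1 for WT 0p5h against ctrl, 1 for WT 24h against ctrl, 2 for WT 24h against 0p5h, 1 for Cacnb3-/- 0p5h against ctrl, 1 for Cacnb3-/- 24h against ctrl (Hmgcs1, log2 fold change 0.663 ± 0.135 SE, edgeR adjusted p = 0.0195, beside 8.54% of all genes called) and 1 for Cacnb3-/- 24h against 0p5h. The block with the GC trend removed, or with DESeq2 (chosen after seeing the data), gave the same counts, 1, 1, 2, 1, 1 and 1. With the GC trend removed these stood beside 7, 9.62, 15.9, 3.6, 4.9 and 24.3% of all genes called. With DESeq2 the shares were 5, 8.31, 11.9, 2.89, 12.9 and 25.7%. The block in 1 fit of all 30 libraries gave 1 for WT 24h against ctrl (beside 11.6% of all genes), 2 for WT 24h against 0p5h (14.3%), 4 for Cacnb3-/- 24h against ctrl (29%), 2 for Cacnb3-/- 24h against 0p5h (34.8%) and 0 in the other 2. The block changed no call in the interactions. Leaving out a culture with the block (chosen after seeing the data) gave, in the order above, 0 to 1, 0 to 1, 0 to 2, 0 to 3, 0 to 2 and 0 to 2. The share of all genes called then ran from 2.39 to 5.71%, 1.42 to 4.86% and 5.6 to 13.5% in WT. In Cacnb3-/- it ran from 1.01 to 9.43%, 0.586 to 13.3% and 12.6 to 40.7%. In Cacnb3-/- 24h against ctrl, Hmgcs1 lost its paired call without culture p974s851 (adjusted p = 0.0797) or p974s853 (0.1). Unpaired, leaving out a culture gave 0 to 2 for Cacnb3-/- against WT in ctrl and 0 to 3 at 24 h. These stood beside 0 to 3.09% and 0 to 35.3% of all genes. At 24 h DESeq2 gave 3 (beside 22.5% of all genes), no filter on low counts 2 (4.89%) and all 30 libraries in 1 fit 3 (29%).

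With the GC trend removed, the log2 fold change of Srebf2 in Cacnb3-/- 24h against 0p5h went from -0.212 to 0.0635 (0.0648 with the block), and that of Hmgcs1 in Cacnb3-/- against WT at 24 h went from 0.333 to -0.0437. These 3 values are smaller than their SE, so no direction is read from them, and beyond that alternative the cause was not tested. Signs were compared only where the reported log2 fold change was larger than its SE. Of the other member values under an alternative, 1613 kept their side of the threshold, and their direction where signs were compared, and 64 passed only under it. With 5 cultures a group, the unpaired intervals of single members were wide.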
